A study of Homo sapiens with 3 samples.

Results

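Solitary ZNF148 peaks are places in the genome where ZNF148 was found alone: no other ZNF148 summit lay within 12500 bp and no p63 summit within 10 kb. They numbered 11495 of the 37883 ZNF148 peaks on chromosomes 1 to 22 and X, or 30.3% (95% Wilson interval 29.9 to 30.8%), in a series whose 2 peak lists hold 59403 peaks. The members were chosen by the measured summit positions in both lists, so their isolation is a description and not a finding. The data come from FaDu, an established squamous carcinoma line of the pharynx, grown without treatment. Chromatin immunoprecipitation with sequencing (ChIP-seq), which recovers and counts the DNA bound by a protein, was done once with an antibody against ΔNp63α and once with an antibody against ZNF148, beside an input library without antibody. The labels name 3 independent assays as the source of the DNA but each antibody has 1 list, so no value has a replicate error and no p-value is given. No peak list of the input was used here. The 95% intervals take each peak as an independent draw and cover nothing beyond counting error.

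ZNF148, also known as ZBP-89, is a zinc finger protein of the Krüppel type that binds G-rich and C-rich DNA at promoters and enhancers and can raise or lower transcription. ΔNp63α is the p63 form that lacks the N-terminal activation domain, and it maintains the basal cells of squamous epithelia. Peaks of transcription factors often gather in neighbouring regulatory elements, and the members described here are those that do not. Positions are hg19 coordinates counted from 1. Sequences and genes at the peaks were not analysed here, because the reference tables used belong to another build.

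Solitary peaks were weaker and shorter, on the median, than the other ZNF148 peaks. Their median fold enrichment, the authors' ratio over local background at the summit, was 8.66 (interval of the median 8.54 to 8.66, quartiles 6.49 and 12.3, highest 91.1). ZNF148 peaks with a p63 summit within 10 kb, 13614 in number, had a median of 12.2 (quartiles 7.83 and 23.7). The remaining 12774 peaks, which had a ZNF148 neighbour but no p63 summit within these limits, lay between them at 9.48 (7.14 and 15.6). A fold of 10 or more was reached by 4352 solitary peaks, or 37.9% (37.0 to 38.8%), against 49.6% of all ZNF148 peaks. The shares were 60.6% (59.8 to 61.4%) with p63 nearby and 48.5% (47.6 to 49.3%) with a ZNF148 neighbour only. At a fold of 30 or more they were 4.14%, 18.2% and 7.5% in the same order. Since a peak enters the list by its strength, and the rule by its position in that list, these differences were not tested.

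The deposited values also show how much sequence stands behind a peak. In 39667 of 39669 ZNF148 rows, 1 whole number of fragments at the summit and 1 local background gave both the deposited fold and the deposited −log10 p, the latter to within 0.0001. This is the arithmetic of the peak caller MACS2, named in the submitters' processing notes, which adds 1 to both before it forms the fold. The 2 remaining rows missed by at most 0.000118. Solitary peaks had a median of 12 fragments at the summit (quartiles 9 and 18, range 5 to 293), against 18 with p63 nearby and 14 with a ZNF148 neighbour only. Fewer than 10 fragments carried 3601 of them, or 31.3% (30.5 to 32.2%), compared with 17.0% (16.4 to 17.7%) and 24.9% (24.2 to 25.7%). Fewer than 20 carried 78.4%, compared with 53.4% and 67.5%. Over all ZNF148 peaks, 24.0% had fewer than 10 fragments and 65.8% fewer than 20. A count of 12 fragments has an exact 95% Poisson interval of 6.20 to 21, which on the lowest background corresponds to a fold of 9.38 with an interval of 5.2 to 15.8. The 111 peaks with 5 fragments have the lowest count and sit at the limit of the list. Sites with fewer fragments could not be seen in it. The parts of depth and of the submitters' cut-off, which is not given, in this limit were not tested.

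**Figure D1:**
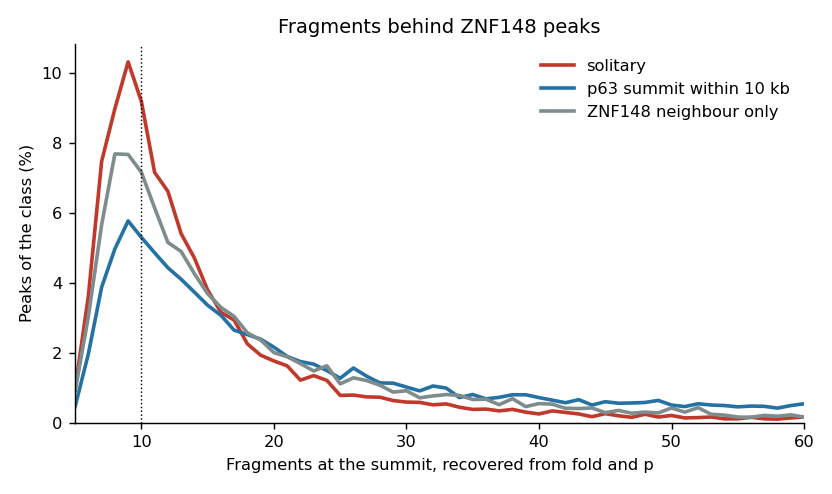
Share of ZNF148 peaks (%, vertical axis) by whole fragments at the summit (horizontal axis, shown from 5 to 60), for solitary peaks, peaks with a p63 summit within 10 kb and peaks with a ZNF148 neighbour only. The dotted line marks 10 fragments; 31.3% of solitary peaks lie below it, against 17.0% and 24.9% of the other classes.

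The share of solitary peaks changed with rank in the ZNF148 list. Among the most significant of 10 equal classes by q value, 451 of 3789 peaks were solitary, or 11.9% (10.9 to 13.0%). It was 23% (21.7 to 24.4%) in class 3, 33.3% (31.8 to 34.8%) in class 5 and 38.9% (37.3 to 40.4%) in class 8, and 38.2% and 37.8% in classes 9 and 10. Peaks with p63 nearby took the opposite course, from 63.8% (62.2 to 65.3%) in class 1 to 26.4% (25.1 to 27.9%) in class 10. Peaks with a ZNF148 neighbour only made up 24.3% of class 1 and then between 33.3% and 35.8% of every other class. Of the 100 most significant ZNF148 peaks, 13 were solitary, and of the first 10 it was 1.

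**Figure D2:**
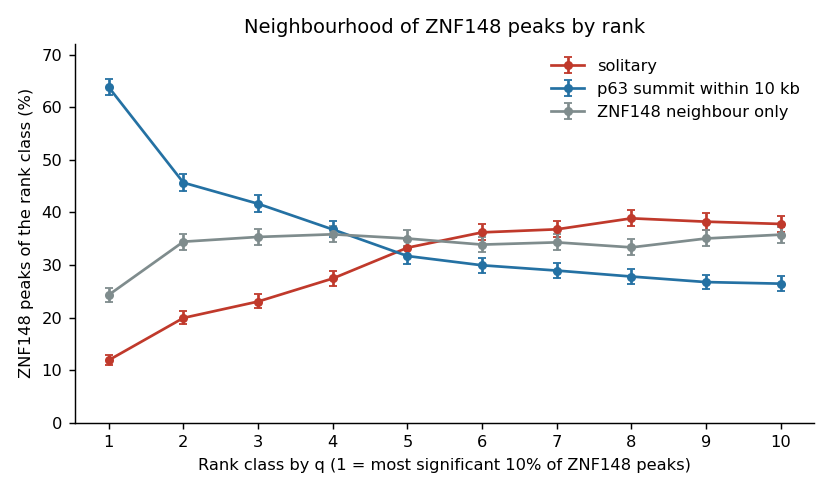
Share of ZNF148 peaks (%, vertical axis) that were solitary, had a p63 summit within 10 kb or had a ZNF148 neighbour only, in 10 rank classes by q value (horizontal axis, 1 is the most significant). Points are shares and bars 95% Wilson intervals; the solitary share was 11.9% in class 1 and 37.8% in class 10.

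ZNF148 fold was set against the distance to p63, separately for peaks without and with a ZNF148 neighbour. Among the 17032 ZNF148 peaks without a ZNF148 neighbour, those with a p63 summit at 0 to 25 bp, 2487 peaks, had a median fold of 31.7 (30.6 to 32.5) and 48 fragments. With p63 at 26 bp to 1 kb the median fold was 12.46 (12 to 13.4). With p63 at 1 to 5 kb it was 9.10 (8.73 to 9.38), and at 5 to 10 kb it was 8.66 (8.54 to 8.95), the same as in solitary peaks. Solitary peaks with p63 at 10 to 25 kb and beyond 25 kb had medians of 8.66 and 8.63. The median was thus equal on both sides of the 10 kb limit. Folds on the lowest background move in steps of 0.721, so medians can tie where distributions differ. Peaks with fewer than 10 fragments made up 26.6% at 5 to 10 kb, 29.7% at 10 to 25 kb and 31.8% beyond 25 kb. Among the 20851 peaks with a ZNF148 neighbour the medians were 27.7 (25.3 to 30.3) with p63 at 0 to 25 bp, 11.8 (11.3 to 12.3) at 26 bp to 1 kb, 10.005 (9.56 to 10.1) at 1 to 5 kb and 9.69 (9.38 to 10.1) at 5 to 10 kb. Beyond 10 kb from p63, a ZNF148 neighbour went with a median fold of 9.48 (9.38 to 9.72), against 8.66 without one. Coincident p63 and ZNF148 summits were mostly free of a ZNF148 neighbour themselves: 2487 of 2906, or 85.6% (84.3 to 86.8%). Such coincidence was found in 14.6% (14.1 to 15.1%) of ZNF148 peaks without a ZNF148 neighbour and in 2.01% (1.83 to 2.21%) of those with one.

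**Figure D3:**
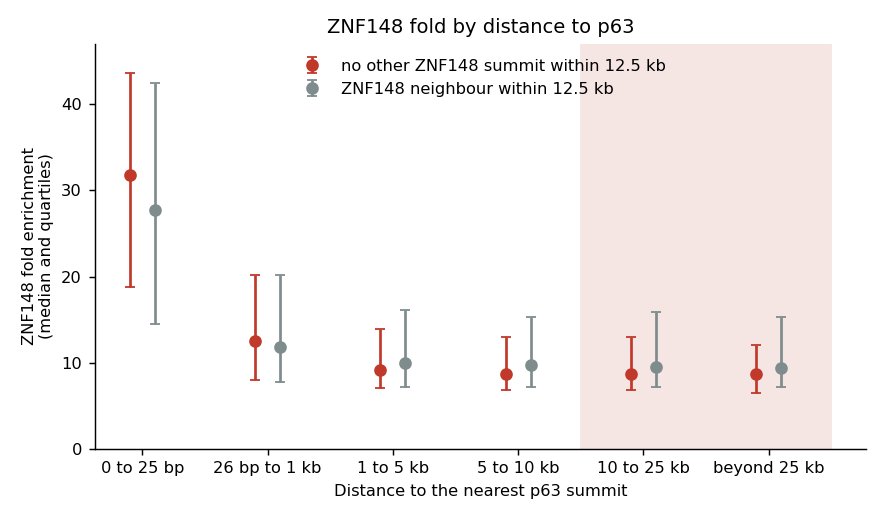
ZNF148 fold enrichment (vertical axis; points are medians, bars quartiles) by distance from the ZNF148 summit to the nearest p63 summit (horizontal axis), for peaks with and without another ZNF148 summit within 12500 bp. Red points in the shaded part are the solitary peaks; red medians are 31.7 at 0 to 25 bp, 12.46 at 26 bp to 1 kb and 8.66 at 10 to 25 kb.

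Solitary peaks were also shorter and, over the whole list, had more than 1 summit in a smaller share. They had a median length of 221 bp (219 to 223), against 273 bp with p63 nearby and 251 bp with a ZNF148 neighbour only. More than 1 summit was called in 232 of them, or 2.02% (1.78 to 2.29%), against 3.70% (3.40 to 4.03%) and 4.84% (4.48 to 5.22%). The order was not the same at each rank by q. In rank class 1 the share was 15.3% for solitary peaks, against 7.32% with p63 nearby and 20.3% with a ZNF148 neighbour only. In class 2 it was 8.48%, against 7.17% and 12.2%, and in class 3 it was 4.01%, against 4.82% and 7.85%. Length depends on strength, so it was also compared at equal fragments on the lowest background. There were 26 such fragment numbers with at least 20 peaks in each class, from 5 to 34 fragments. Solitary peaks had the shorter median in 24 of the 26 against peaks with a ZNF148 neighbour only, by a median of 13 bp, and in 19 of the 26 against those with p63 nearby, by 7 bp. At 10 fragments the median was 199 bp (196 to 204) for solitary peaks, 211 bp (201 to 220) with p63 nearby and 216 bp (207 to 225) with a ZNF148 neighbour only. The summit lay near the middle of the interval, at 49.4% of its length on the median (quartiles 45.7 and 53.9%).

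The most significant solitary peak lay on chromosome 8 at 135724855 to 135725443, with 216 fragments (exact Poisson interval 188 to 247), a fold of 84.3 and 365 as its −log10 q. It ranked ninth in the whole ZNF148 list. Its nearest ZNF148 summit was 56.9 kb away and its nearest p63 summit 21.3 kb. The second, on chromosome 1 at 93811196 to 93811568, had 149 fragments (126 to 175) and a fold of 84.8. Neither had a summit of the other protein within 20 kb.

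Chromosome 15 held the third and the next. The third, at 102192087 to 102192781, had 198 fragments (171 to 228) but a fold of only 46.3, because its local background of 3.30 fragments was 8.54 times the lowest of the list. The next, at 80352006 to 80352379, had 133 fragments (111 to 158) on a background of 0.494 and reached a fold of 89.7, with ZNF148 neighbours no closer than 112 kb. The highest fold of any solitary peak, 91.1, belonged to the fifth, on chromosome 2 at 242254788 to 242255703, which had 127 fragments (106 to 151) and 2 summits.

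The sixth, on chromosome 14 at 64194674 to 64195021, had a fold of 70.9 and was the most isolated from ZNF148 of the 10, at 147 kb. The seventh, on chromosome 16 at 75182247 to 75182842 (fold 74.8), lay 10.8 kb from a p63 summit, just past the limit. The eighth, on chromosome 8 at 92052948 to 92053431 (fold 75), was the most remote from p63 of the 10, at 156 kb. The ninth was on chromosome 1 at 49722803 to 49723244 (fold 76.0). The tenth, on chromosome 10 at 99094695 to 99095072 (fold 85.1), had 117 fragments on the lowest background. All 10 had at least 117 fragments, with lower interval bounds from 96.8 fragments upward, against a median of 12 over all solitary peaks. They were chosen by q, which depends on the fragments, so this distance follows from the choice. The intervals do not allow for that choice. At the other end, the 10 least significant had 5 fragments each and folds of 4.3 to 4.33.

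Most solitary peaks had another ZNF148 summit within 100 kb. The median distance to the nearest ZNF148 summit was 40.4 kb (quartiles 23.1 and 79.2 kb) and to the nearest p63 summit 51.7 kb (26.5 and 102 kb). For 4902 of them, or 42.6%, p63 was nearer than ZNF148. The rule itself makes p63 the nearer for 414 of these, whose p63 summit lay between 10 kb and 12500 bp. The nearest ZNF148 peak was itself solitary for 52.1% (51.2 to 53%) of solitary peaks. It had p63 nearby for 31.0% (30.1 to 31.8%) and had a ZNF148 neighbour only for 16.9% (16.3 to 17.6%). Over all ZNF148 peaks these classes made up 30.3%, 35.9% and 33.7%. Nearest peaks share a gap, so the rule itself favours a solitary nearest peak, and the difference is no finding. For 845 solitary peaks, or 7.35% (6.89 to 7.84%), the nearest ZNF148 and the nearest p63 summit were 1 site, no more than 25 bp apart. The third and the ninth of the peaks named above are such cases, at 25.5 and 25.6 kb. The p63 peaks nearest to a solitary peak, 7785 distinct ones, had a median fold of 13.2, as had all p63 peaks.

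High folds made up a smaller share of the most remote peaks. Of the solitary peaks, 2142 had no ZNF148 summit within 100 kb and 70 none within 500 kb. A fold of 10 or more was found in 39.1% (37.4 to 40.7%) of those with the nearest ZNF148 summit at 12500 bp to 25 kb, in 35.9% (33.7 to 38.1%) at 100 to 250 kb, in 31.6% (26.7 to 37.0%) at 250 to 500 kb and in 22.9% (14.6 to 34.0%) beyond that. With distance to p63 the share went from 40.4% (38.6 to 42.3%) at 10 to 25 kb to 22.1% (13.8 to 33.3%) beyond 500 kb. The background was at its lowest value in 48.8% of the former group by ZNF148 distance and in 65.7% of the last, and its part in the difference was not tested. The peak farthest from any other ZNF148 summit, on chromosome 21 at 22370575 to 22370733, had 8 fragments (3.45 to 15.8) and a fold of 6.49, with 2123 kb to the nearest. Those on chromosome 13 at 69978149 to 69978351 (1527 kb, 11 fragments) and chromosome 2 at 141584063 to 141584333 (1288 kb, 14 fragments) followed. The next were on chromosome 4 at 30462886 to 30463074 (1287 kb, 6 fragments) and chromosome 7 at 153568326 to 153568475 (1112 kb, 5 fragments). None of these 5 reached a fold of 10.

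The 5 solitary peaks farthest from p63 were all on chromosome 16, in 2 places. Those at 7350097 to 7350296, 7501571 to 7501746 and 7665645 to 7665837 lay 1431, 1279 and 1115 kb from the nearest p63 summit and had 10, 8 and 13 fragments. The other 2, at 52047110 to 52047290 and 51981651 to 51981982, lay 1029 and 1023 kb away. The last had 31 fragments (21.1 to 44) and reached 23.1-fold; the other 4 stayed below 10-fold.

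Members and non-members met without a gap at the limits. Just inside the ZNF148 limit were peaks on chromosomes 6, 20 and 1 at 12508, 12508 and 12513 bp from the nearest ZNF148 summit, with folds of 10.8, 5.52 and 7.5. Just outside it were a pair on chromosome 19, which are each other's neighbour, and a peak on chromosome 12, all at 12498 bp, with folds of 53.2, 24.1 and 7.90. Just inside the p63 limit were peaks on chromosomes 14, 1 and 3 at 10015, 10018 and 10025 bp, with folds of 5.77, 5.05 and 6.45. Just outside it were peaks on chromosomes 6, 8 and X at 9991, 9991 and 9986 bp, with folds of 37.2, 10.0 and 4.33.

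Solitary peaks were spread more evenly over the chromosomes than other ZNF148 peaks. Densities were taken over the span from the first to the last peak of the 2 lists, 35.1 Mb on chromosome 22. Densities over full chromosome lengths, which can change the order, were not computed. Chromosome X had the lowest density, 2.34 per Mb (exact Poisson interval 2.11 to 2.60). Chromosome 22 had the highest, 6.03 per Mb (5.25 to 6.90), a ratio of 2.58. For other ZNF148 peaks the extremes were 2.65 per Mb (chromosome 18) and 28.3 per Mb (chromosome 22), a ratio of 10.7. The solitary share of ZNF148 peaks accordingly went from 17.4% on chromosome 17 (16.0 to 19.0%) to 48.8% on chromosome 18 (43.9 to 53.6%). It was 17.6% on chromosome 22, 19.9% on chromosome 19, 43.9% on chromosome 4 and 44.7% on chromosome 13. The rule favours sparse chromosomes by itself, since neighbours are closer where peaks are dense. Over 23 chromosomes the 2 densities went together, with a Pearson r of 0.85 and a Spearman rho of 0.87, and an r of 0.81 when chromosomes 22 and 17 were left out. All chromosomes share 1 library and its depth, so no p is given.

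**Figure D4:**
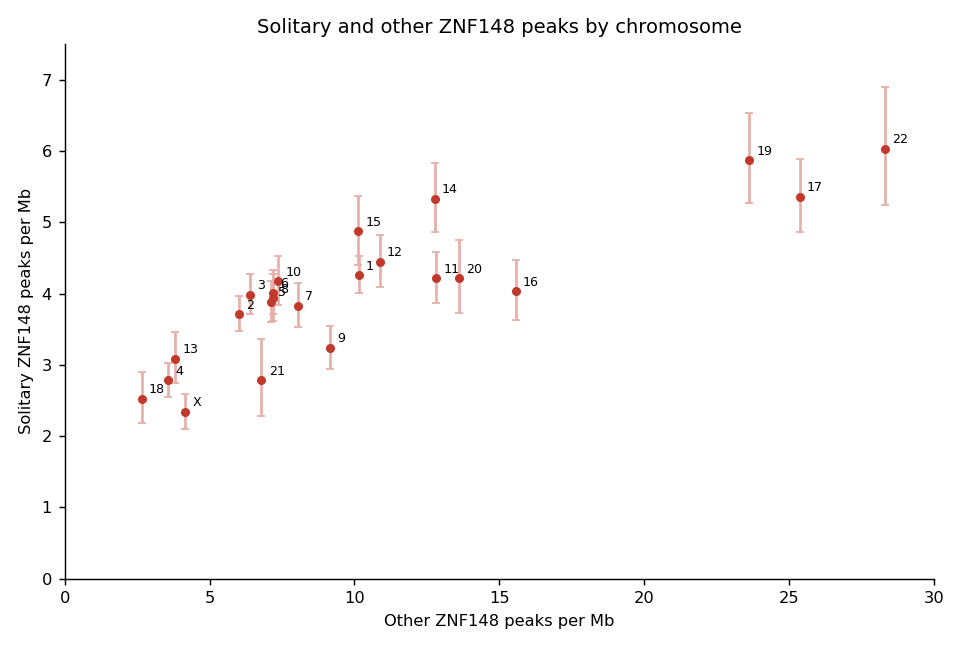
Solitary ZNF148 peaks per Mb (vertical axis; bars are exact 95% Poisson intervals) against all other ZNF148 peaks per Mb (horizontal axis) on 23 chromosomes, labelled by name. Chromosome 22 is highest on both axes, at 6.03 and 28.3 per Mb of the span from its first to its last peak. The vertical range spans a ratio of 2.58 and the horizontal one of 10.7.

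The median fold varied less between chromosomes than the share of high folds. Folds on the lowest background move in steps of 0.721, so chromosome medians can tie where distributions differ. The median fold of solitary peaks was between 7.94 and 9.13 on every chromosome, and the share with a fold of 10 or more between 30.6% on chromosome X and 42.4% on chromosome 7. Median fragments ranged from 10 on chromosomes 4, 18 and X to 14 on chromosome 14. The local background ranged more widely: it was at the lowest value for 79.7% of solitary peaks on chromosome 4 and 79.1% on X, but for 16.2% on chromosome 14 and 24.7% on chromosome 8. Background enters both the fold and the fragments needed to be called. Its part in the differences between chromosomes was not tested.

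Within chromosomes, solitary peaks were counted in windows of 1 Mb. They were present in 2633 of the 2818 windows with a ZNF148 peak, or 93.4%, with a median of 4 per window (quartiles 2 and 6) and at most 16. Windows with 1 or 2 ZNF148 peaks held 0.817 solitary peaks on average and those with 3 to 5 held 2.01. Windows with 6 to 10 ZNF148 peaks held 3.77 solitary peaks on average, those with 11 to 20 held 5.44, those with 21 to 40 held 7.07 those with 41 to 80 held 7.09, and the 19 windows with more held 5.63. The number in dense windows is limited by the rule itself, which leaves room for few isolated summits there. The richest was on chromosome 19 from 11 to 12 Mb, with 16 solitary among 44 ZNF148 peaks, followed by chromosome 11 from 44 to 45 Mb, with 15 among 42. In 198 windows every ZNF148 peak was solitary. The largest of these, on chromosome 4 from 77 to 78 Mb, held 10, with 5 p63 peaks that all lay more than 10 kb from them. Among the windows without a solitary peak, the one on chromosome 9 from 139 to 140 Mb had the most ZNF148 peaks, 165. In windows with 1 or 2 ZNF148 peaks, a fold of 10 or more was found in 24.4% (19.5 to 30.1%) of the solitary peaks, against 40.2% (38.6 to 41.8%) in windows with 11 to 20 and 41.3% (38.4 to 44.3%) in windows with 41 to 80. The windows and runs named here were picked with their values known.

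Consecutive ZNF148 peaks that were all solitary formed 5508 runs with a median of 2 peaks. Of these runs 2686 held a single peak, 427 held 5 or more, with 23.1% of the solitary peaks, and 20 held 10 or more. Runs are read from the same gaps as the rule, and neighbours share a gap, so they describe where solitary peaks lie and are no finding. The longest runs had 15 peaks. One lay on chromosome 5 from 156920559 to 158546570, over 1.63 Mb, with folds of 5.05 to 21.4 and 5 p63 peaks between its ends. The other lay on chromosome 15 from 27884134 to 30114920, with folds of 6.49 to 26 and 12 p63 peaks. A run of 14 on chromosome 4 from 76597531 to 78222511 was the strongest of the 3, with a median fold of 11.2 and 9 of its 14 peaks at a fold of 10 or more.

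Local background separated a few members from the rest. It was at the lowest value of the list, 0.386 fragments, for 5446 solitary peaks, or 47.4% (46.5 to 48.3%), against 38.8% (38.0 to 39.6%) with p63 nearby and 45.0% (44.1 to 45.9%) with a ZNF148 neighbour only. It was above 2 fragments for 24 solitary peaks, in 2 sets. The first set is 7 peaks with a background of 32.4 to 88.4 fragments, 66 to 293 fragments at the summit and folds of only 1.72 to 3.29. They lay on chromosome 1 at 121484086 to 121485425, chromosome 6 at 58776272 to 58779527, chromosome 10 at 42529298 to 42529633, chromosome 16 at 46432700 to 46432859, chromosome 4 at 49151547 to 49151806, chromosome 9 at 67320656 to 67320905 and chromosome 2 at 89875181 to 89875437. The peak on chromosome 6 had 9 summits over 3256 bp, the most of any solitary peak and the longest. The peak on chromosome 1 is followed by 21147 kb without a ZNF148 summit, the stretch that holds the centromere and the heterochromatin beside it. With the peaks of each list limited to a background of at most 5 times its lowest, a setting chosen after seeing the data, 11508 peaks were solitary and their median fold was again 8.66.

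The second set, of 17 peaks with a background between 2 and 10 fragments, included 8 on chromosome 11 between 69655709 and 70927038. This part of 11q13 is amplified in many squamous carcinomas of the head and neck. From 69 to 71 Mb of chromosome 11 there were 221 ZNF148 peaks and 9 were solitary. Their background ranged from 1.8 to 8.09 fragments with a median of 3.73, and that of the other ZNF148 peaks there had a median of 3.34, while the median over all solitary peaks of chromosome 11 was 0.386. They had 20 to 130 fragments at the summit, with a median of 32 against 12 over all solitary peaks, and a median fold of 8.43 against 8.66. The strongest, at 70168801 to 70169111, had 130 fragments (109 to 154) and a fold of 20.2 on a background of 5.5. Its neighbour at 70181396 to 70181714, 12597 bp away, had 95 fragments (76.9 to 116) and a fold of 10.6 on a background of 8.09. Copy number was not measured here, and its part in these values was not tested.

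**Figure D5:**
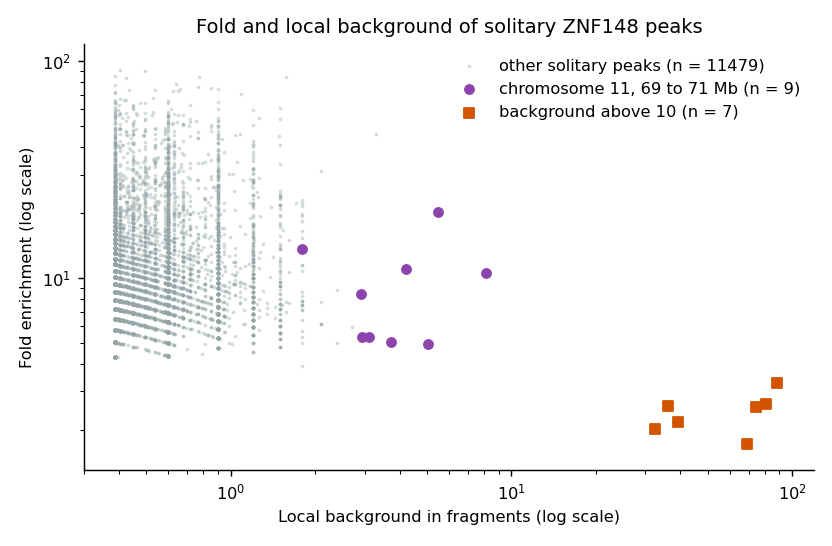
Fold enrichment (vertical axis, log scale) against local background in fragments (horizontal axis, log scale) for the 11495 solitary ZNF148 peaks. Squares are the 7 peaks with a background above 10, all at folds of 1.72 to 3.29; large circles are the 9 peaks on chromosome 11 from 69 to 71 Mb; rows of small points are whole numbers of fragments.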

How the data were processed

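MACS2 2.2.6, Bowtie2 2.3.4.3, SAMtools 1.7, MultiQC 1.12, FastQC 0.11.9 and the hg19 build are named, with no role or setting, by the submitters' processing notes. Control and read filters are not given in the sources used here. Columns were read in narrowPeak order, as no header exists. The fold (a ratio over local background), the −log10 p and the −log10 q of each peak are the authors' deposited values. The deposited score is the whole part of 10 times −log10 q and was not used. Rows on chromosomes 1 to 22 and X with the same start and end were joined as 1 peak, keeping the summit with the highest −log10 q. Distances were measured between summits, and the 11495 members were also found with bedtools 2.31.1.

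Fragments and background were recovered from fold and −log10 p. All 21922 p63 rows were whole to within 0.0001. The lowest p63 background was 3.28 times the lowest ZNF148 background, and at the 2906 coincident summits the median ratio was 3.28 (quartiles 3.28 and 3.30). Total reads per library are unknown. In simulated peaks 100% of 5000 fragment numbers were recovered. Their backgrounds were low, so the simulation did not cover the solitary peaks with a background above 10 fragments. Intervals are 95% Wilson for shares, exact Poisson for counts and order statistics for medians. Members, limits and named windows were chosen with earlier results of these data known. The rule for named peaks was the 10 highest by q, the 5 farthest from each protein and 3 on each side of each limit. Planned counts near transcription starts, motif shares and gene lists were not run, since no hg19 sequence or annotation was used here. Calculations used Python 3.11.15, numpy 2.4.6, pandas 2.3.3 and scipy 1.17.1, and figures matplotlib 3.10.9.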

Additional observations from a re-analysis of the deposited data

How the results depend on the processing

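Of 49 recomputed values under 12 settings, 29 did not leave the 95% interval of the value in the report (for numbers of peaks, 1.5 times it) and 20 did. The median fold of solitary peaks was below that of the other ZNF148 peaks in all 12 settings. These settings reuse the same 2 lists and are not independent. The gap differed: the medians were 8.66 and 10.7 as reported, but 9.38 and 10.0 without a p63 limit. The share of ZNF148 peaks that were solitary, 30.3%, became 21.7% with the ZNF148 limit at 25 kb and 39.3% at 5 kb. It became 23.3% with the p63 limit at 25 kb, 32.8% at 5 kb and 45.0% without a p63 limit. In that last case the median fold was 9.38, against 10.0 in the other ZNF148 peaks. The share with a fold of 10 or more was 48.3%, against 49.6% of all ZNF148 peaks. Counting every ZNF148 summit gave a solitary share of 28.5% and 36.8% with a fold of 10 or more, against 50.1% of all summits. With a −log10 q of at least 10 in both lists, 33.3% were solitary, with a median fold of 11.9. A fold of 10 or more was found in 71% of them, against 77.8% of all ZNF148 peaks of that list. The ratio of densities between chromosomes 22 and X was then 3.64 in place of 2.58. With the ZNF148 list as long as the p63 list there were 6996 solitary peaks, or 32.5%, with a median fold of 13.0. Of them 83.1% were at 10 or more, against 87.3% of that whole list. With at least 10 fragments, a setting chosen after seeing the data, the solitary share was 31.2% and the median fold 10.4. A fold of 10 or more was found in 56.0%, against 65.3% of that whole list. A background of at most 5 times the lowest, also chosen after seeing the data, moved no value. Stricter lists raise fold values by their construction, and of the 6996 peaks 5298 were solitary in the full list too. Settings for transcription starts, motifs and base composition were not run, as no hg19 sequence or annotation was used here. No paired analysis was possible because each antibody has 1 list. Fragment counts under 20 limit 78.4% of solitary peaks and 65.8% of all ZNF148 peaks.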
